A study of Mus musculus with 17 samples.

Results

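The inhibitor of DNA binding (ID) factors and the receptors and SMADs of the bone morphogenetic protein (BMP) pathway were followed in 17 bulk RNA-seq libraries of cultured mouse astrocytes. The set holds 10 of the 56691 gene rows in the deposited count table, found by gene symbol: *Id1*, *Id2*, *Id3*, *Id4*, *Bmpr1a*, *Bmpr2*, *Smad1*, *Smad5*, *Smad6* and *Smad7*. These genes were chosen by symbol with earlier results on the same counts known. Their differences between groups are therefore given as a description, and the p-values beside them are those of fits across all genes and no independent support. Each of the 10 genes stood on 1 row and passed the filter on low counts in all 6 comparisons, so none was dropped.

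All cultures were C57BL/6 astrocytes, isolated at postnatal day 2 from whole brain without meninges, olfactory bulbs and cerebellum. They were purified by immunopanning, in which antibody-coated dishes first removed CD45+ and O4+ cells and then retained HepaCAM+ astrocytes, and they grew in serum-free medium with heparin-binding EGF-like growth factor. In the SAG experiment, 3 cultures received SAG, a small molecule that activates Smoothened and so the Sonic hedgehog (SHH) pathway, at 500 ng per ml from day 3 in vitro for 3 d. DMSO alone, the solvent, was given to 3 control cultures over those 3 d. In the FGF experiment, 4 cultures received FGF2 and 3 received FGF10, each at 50 ng per ml from day 2 in vitro for 7 d, with 4 PBS cultures as controls. FGF2 has 4 labeled replicates but 3 in the methods, and none was dropped. The methods call the replicates biological, the study describes them as sample pools, and it states in general that its experiments were repeated with mice of several generations. Which cultures share a pool, a day or a generation is not given, so the p-values measure the spread between these cultures.

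ID proteins are helix-loop-helix factors that lack the basic region needed to bind DNA. They pair with E proteins such as TCF4 and keep them from forming active dimers with tissue-specific bHLH factors such as OLIG2. BMP ligands bring together type I receptors such as BMPR1A and type II receptors such as BMPR2, the type I receptor phosphorylates SMAD1 and SMAD5, and these enter the nucleus with SMAD4. *Id* genes are well-known direct targets of this branch, and SMAD6 and SMAD7 are inhibitory SMADs that feed back on it. In the developing brain, BMP signaling is known for promoting astrocyte traits, and ID proteins for holding back neuronal and oligodendrocyte differentiation.

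Depth lay between 17481727 and 68342287 counts a library (median 37173676). Levels are in CPM, that is counts scaled to a common library total, after TMM scaling of all 17 libraries. The library method reads each transcript near its 3′ end, so CPM are not divided by transcript length, and levels of different genes are compared on this scale. The check of the SAG treatment held in every culture. *Ptch1*, which encodes the SHH receptor and is itself a target of the pathway, was at 67.5–103 CPM with DMSO and 457–482 CPM with SAG. *Gli1*, a transcriptional effector and target, was at 0 in every DMSO library and at 6.67, 6.70 and 38.2 CPM with SAG. All 10 listed astrocyte markers were detected in each group (summed 3423–5610 CPM over the 17 libraries), whereas listed microglia or macrophage markers summed to at most 4.35 CPM. Of the endothelial or mural markers, *Cldn5*, *Cdh5* and *Kcnj8* were at 0 throughout. That list still summed to 41.0–356 CPM, led by *Acta2* at a mean of 152 CPM. Oligodendrocyte lineage markers summed to 315–909 CPM and ependymal markers to 82.8–553 CPM. Neuron markers summed to 26.1–245 CPM and fibroblast or meningeal markers to 11.2–101 CPM. In bulk samples, fewer cells of a type and less RNA per cell cannot be told apart. Replicates 3 and 4 of the FGF experiment stood apart from replicates 1 and 2 in all 3 groups. The labels name no batch. Within replicates 1 and 2 alone, edgeR called 0 of the 10 genes in each comparison of the FGF experiment, and within replicates 3 and 4, where FGF10 has 1 library, it called *Id4* among 47 of all genes in FGF2 against FGF10 and none of the 10 in the other comparisons.

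*Id1* lies at chr2:152736251-152737410, *Id2* at chr12:25093799-25096092, *Id3* at chr4:136143822-136145392 and *Id4* at chr13:48261116-48266028 (GRCm38.p6). Noncoding genes on the opposite strand overlap *Id4* (*A330033J07Rik*, *Gm49291*) and *Bmpr1a* (*Gm17110*), and since the strand setting of the counting is not given, reads of these pairs cannot be told apart. Averaged over all 17 libraries, *Id4* was the most abundant of the 10 transcripts, at 361 ± 179 CPM (SD, n = 17 libraries), and ranged from 95.0 to 594 CPM. *Smad5* followed at 226 ± 43.0 CPM with the narrowest relative spread, from 146 to 297 CPM. In the SAG group the order of these genes was the reverse, with *Smad5* at 242 ± 47.4 CPM and *Id4* at 159 ± 29.4 CPM (SD, n = 3), and in FGF2 replicates 3 and 4 both *Smad5* and *Id3* lay above *Id4*. *Id3* (132 ± 69.5 CPM) and *Id2* (87.7 ± 33.3 CPM) came next. *Bmpr2* (63.7 ± 24.5 CPM), *Bmpr1a* (53.7 ± 13.6 CPM), *Smad1* (37.3 ± 13.6 CPM) and *Id1* (28.9 ± 17.9 CPM) lay close together. The inhibitory SMADs were near the limit of detection, *Smad7* at 5.97 ± 6.21 CPM and *Smad6* at 4.84 ± 4.78 CPM, each with 0 counts in 4 libraries. Each pair of neighbors in this order differed by less than the sum of its SDs over the 17 libraries, so the order itself is loose. Together the 4 ID genes held 322–896 CPM per library, against 173–326 CPM for *Smad1* and *Smad5*, 70.3–186 CPM for both receptors and 0–26.0 CPM for both inhibitory SMADs.

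The upstream sequences of *Id2*, *Id3* and *Id4* are shown because these ID genes had differences of unlike sign in the comparisons that follow. Each is the 250 bases before the RefSeq gene start (GRCm38.p6), 5′ to 3′ on the strand of the gene: chr12:25096093-25096342 (minus strand) for *Id2*, chr4:136143572-136143821 (plus strand) for *Id3* and chr13:48260866-48261115 (plus strand) for *Id4*. Capitals mark GGCGCC, a GC-rich element known from BMP-responsive promoters, and the SMAD-binding tetramer GTCT on either strand (AGAC on the strand shown).
Id2: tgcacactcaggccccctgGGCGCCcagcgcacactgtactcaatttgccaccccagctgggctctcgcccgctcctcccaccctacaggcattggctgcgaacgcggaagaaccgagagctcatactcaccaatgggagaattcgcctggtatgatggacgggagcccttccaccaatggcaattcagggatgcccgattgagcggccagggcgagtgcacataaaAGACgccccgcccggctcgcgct
Id3: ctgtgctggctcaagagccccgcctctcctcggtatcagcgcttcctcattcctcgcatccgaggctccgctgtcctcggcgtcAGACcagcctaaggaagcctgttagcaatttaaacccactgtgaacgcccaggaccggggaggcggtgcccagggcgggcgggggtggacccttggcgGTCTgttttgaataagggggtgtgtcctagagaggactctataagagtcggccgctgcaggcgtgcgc
Id4: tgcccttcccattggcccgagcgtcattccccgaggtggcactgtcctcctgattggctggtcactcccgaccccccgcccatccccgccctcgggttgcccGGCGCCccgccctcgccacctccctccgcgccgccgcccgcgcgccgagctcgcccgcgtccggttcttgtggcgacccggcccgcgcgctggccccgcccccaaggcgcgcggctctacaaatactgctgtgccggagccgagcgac
GGCGCC occurred 1 time in the *Id2* and 1 time in the *Id4* sequence and 0 times in that of *Id3*. Of all 32851 upstream windows of this length in the table, 9.59% held it. GTCT occurred 1 time for *Id2*, 2 times for *Id3* and 0 times for *Id4*, against 82.9% of all windows with at least 1 match. The TATAAA motif was in none of these 3 windows and in 12.4% of all. GC content was 62.8% for *Id2*, 62.8% for *Id3* and 75.6% for *Id4*. Such matches, and their absence, describe letters in these windows and say nothing of binding. For *Id4*, the GENCODE transcripts do not hold the bases just after this RefSeq start. Upstream sequences were matched to 8 of the 10 genes, and those of *Id1* and *Smad7* were not examined.

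With SAG, *Id4* fell and no other gene of the set passed the test. *Id4* was at 509, 411 and 407 CPM in the DMSO cultures and at 183, 167 and 126 CPM in the SAG cultures, so every SAG value lay below every DMSO value. This was a log2 fold change of -1.46 ± 0.21 (SE, edgeR quasi-likelihood test, adjusted p = 0.0366 over 12538 genes, n = 3 per group) and ranked 7 of all genes by p-value. Thus 1 of the 10 genes was called, where 8 of all genes tested (0.0638%) were. The call did not hold without any 1 of the 6 libraries: the log2 fold change then ran from -1.57 to -1.33 and the edgeR adjusted p from 0.0691 to 0.290. It was also lost in a single edgeR fit of all 17 libraries (adjusted p = 0.449).

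The other 3 ID genes had differences of unlike sign, none past the test. *Id2* was at 84.0, 53.0 and 112 CPM with DMSO and at 36.0, 42.6 and 45.1 CPM with SAG, again without overlap, with a log2 fold change of -0.98 ± 0.37 (SE, edgeR adjusted p = 0.693). *Id3* went the other way: it was at 24.2, 92.5 and 58.4 CPM with DMSO and 56.4, 204 and 138 CPM with SAG, a log2 fold change of 1.21 ± 0.52 (SE, edgeR adjusted p = 0.805), and the lowest SAG culture lay among the controls. *Id1* was at 31.9, 24.0 and 21.3 CPM with DMSO and at 61.6, 55.3 and 13.0 CPM with SAG, 2 cultures above and 1 below all controls. CPM of 2 of the 10 genes did not overlap between SAG and DMSO, both lower with SAG, where this held for 14.2% of all genes tested.

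The make-up of the ID transcripts differed as well. *Id4* formed 72.4 ± 5.4% of the summed ID CPM with DMSO and 43.0 ± 9.9% with SAG (SD, n = 3 each), without overlap between single cultures (68.0–78.4% and 35.6–54.3%). The sum itself was 609 ± 35.6 CPM with DMSO and 376 ± 81.2 CPM with SAG (SD, n = 3 each). The share of *Id3* was 3.72–15.9% with DMSO and 16.8–43.5% with SAG. These shares are read from the same counts as the levels and were not tested.

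**Figure D1:**
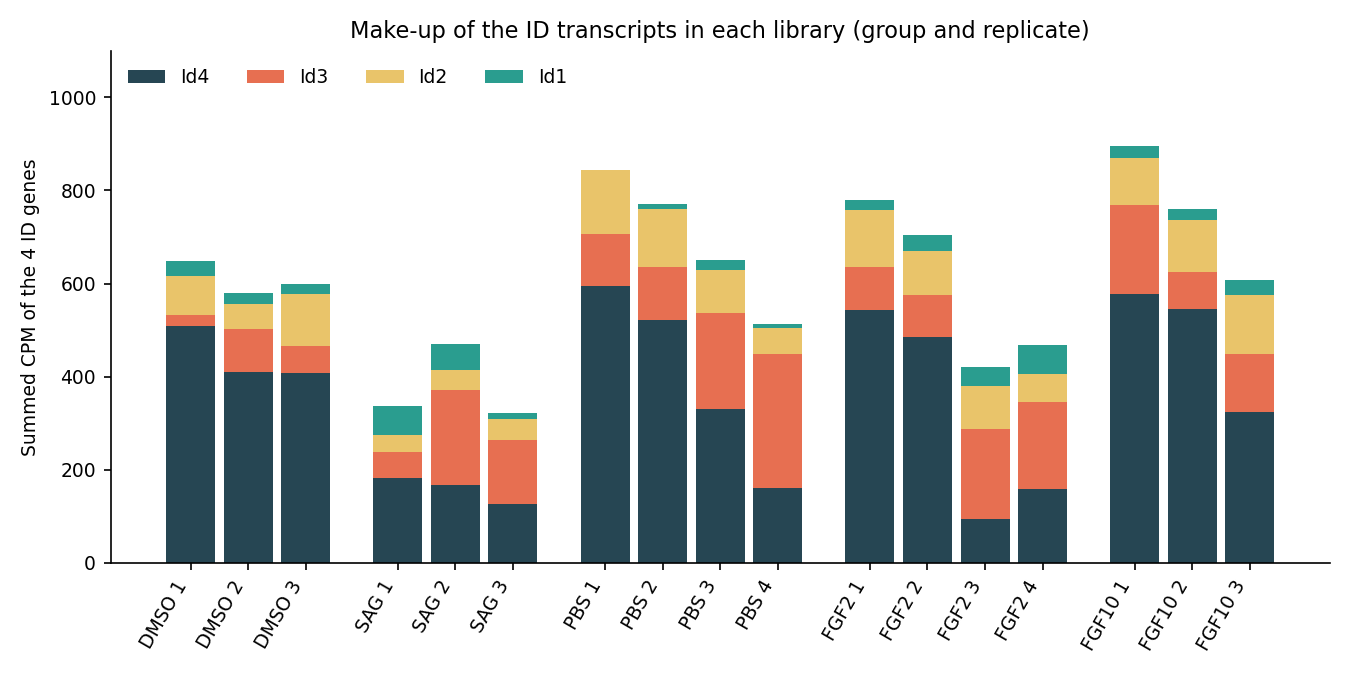
Summed CPM of *Id4*, *Id3*, *Id2* and *Id1* in each of the 17 libraries, 1 stacked bar per library named by group and replicate. The SAG bars reach 322–469 CPM against 580–649 CPM for DMSO, and *Id4* makes up 22.6–53.2% of the bar in replicates 3 and 4 of PBS, FGF2 and FGF10 against 64.4–71.8% in replicates 1 and 2.

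No receptor or SMAD gene passed the test with SAG. *Bmpr1a*, *Bmpr2*, *Smad1* and *Smad5* had log2 fold changes of 0.06, 0.31, -0.06 and -0.13 with standard errors of 0.35, 0.45, 0.59 and 0.21, and an edgeR adjusted p of 1.00 each. *Smad5*, the more abundant receptor-regulated SMAD, was at 235, 282 and 289 CPM with DMSO and at 212, 297 and 218 CPM with SAG. *Smad6* was at 0 counts in 2 SAG cultures and at 15.4 CPM (482 counts) in the third, and *Smad7* was at 0–7.79 CPM with DMSO (0–380 counts) and 0–5.02 CPM with SAG. With this spread between cultures the standard errors of their log2 fold changes were 2.88 and 3.00.

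Marker sums of other cells and states also differed between the DMSO and SAG libraries. Summed cell cycle markers were at 215–342 CPM with DMSO and 387–500 CPM with SAG, with 10 of 10 genes higher, 0 called by edgeR and 1 at an unadjusted p under 0.05. Neuron markers summed to 82.3–245 and 26.1–75.4 CPM, ependymal markers to 198–290 and 121–147 CPM, and fibroblast or meningeal markers to 23.2–42.2 and 12.8–20.6 CPM. *Pdgfrb*, which is on the fibroblast or meningeal and on the endothelial or mural list, was at 19.0–23.5 CPM with DMSO and 0–6.45 CPM with SAG. Of the 3 fibroblast or meningeal genes tested, 1 was higher and 2 were lower with SAG. *Fn1*, on that list, had a mean of 2.79 CPM with DMSO and 4.17 CPM with SAG. Astrocyte, oligodendrocyte lineage and endothelial or mural sums overlapped between DMSO and SAG (4255–4630 and 3675–4368, 481–644 and 466–585, 138–233 and 124–180 CPM). Single markers did separate the groups: of 10 astrocyte genes, *Gfap*, *Gja1* and *Sox9* were lower with SAG and *Aldh1l1* was higher without overlap, with 4 of 10 at an unadjusted p under 0.05 and 0 called by edgeR. *Sox10*, of the oligodendrocyte lineage list, was at 72.1–118 CPM with DMSO and 39.4–48.6 CPM with SAG. It was the 1 gene without overlap among 7 tested on that list, of which 2 were higher and 5 lower with SAG. *Cnp*, the most abundant of them, had a mean of 312 CPM with DMSO and 347 CPM with SAG. Among all genes tested, 14.2% did not overlap between these groups. The part of these cells or states in the *Id4* result was not tested.

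**Figure D2:**
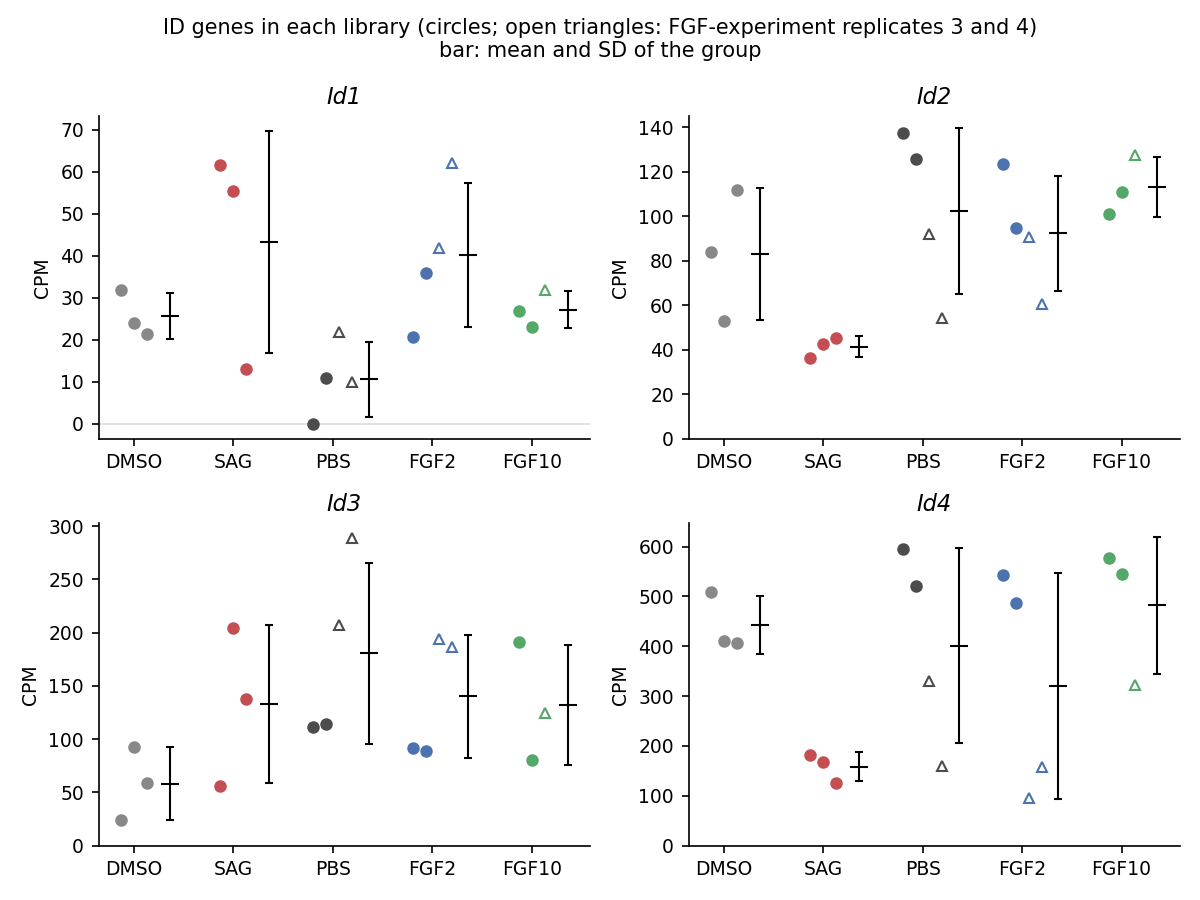
CPM of the 4 ID genes in each library, by group, with the group mean and SD beside the points; open triangles are replicates 3 and 4 of the FGF experiment. *Id4* lies at 126–183 CPM in the SAG cultures and 407–509 CPM in the DMSO cultures, and its PBS, FGF2 and FGF10 values divide by replicate set.

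With FGF2, none of the 10 genes passed the test, which does not show that they were unchanged. The main fits of the FGF experiment's groups left out the replicate set. With p-values spread evenly, 637 genes would lie under 0.05 in FGF2 against PBS, more than were seen. With the set as a term, edgeR also called 0 of the 10 and 0 of all genes. In FGF2 against PBS, 0 of 10 genes and 0 (0%) of 12744 genes tested were called by edgeR, with 0 and 223 at an unadjusted p under 0.05, and DESeq2 called 0 of the 10 and 104 of all genes. *Id1* had the largest fitted difference among the ID genes. It was at 0, 10.8, 21.9 and 9.97 CPM with PBS and at 20.6, 35.8, 42.0 and 62.1 CPM with FGF2, a log2 fold change of 1.92 ± 1.11 (SE, edgeR adjusted p = 1.00, n = 4 per group). Only FGF2 replicate 1 lay below the highest PBS value, and within replicates 1 and 2 and within replicates 3 and 4 both FGF2 cultures exceeded both PBS cultures. In groups this small, 4 of the 10 genes did not overlap in replicates 1 and 2 and 5 in replicates 3 and 4. The share over all genes was not counted there, so this order is described only. PBS replicate 1 had no *Id1* count at all, and in that library 6.37% of genes at 10–30 CPM elsewhere had none either (0.638–8.90% over all libraries). No gene of the set separated the 4 FGF2 from the 4 PBS libraries, which 2.45% of all genes did.

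Over all 8 libraries *Id2*, *Id3* and *Id4* overlapped between FGF2 and PBS, with log2 fold changes of -0.14, -0.36 and -0.31 and standard errors of 0.32, 0.36 and 0.50. Within each replicate set both FGF2 cultures were below both PBS cultures for *Id3* (91.9 and 88.6 against 111 and 114 CPM, and 194 and 187 against 207 and 289 CPM). Like the order of *Id1* within the sets, this is a description of small groups and was not called in either set. *Id4* overlapped in replicates 1 and 2, at 543 and 486 CPM with FGF2 and 594 and 522 CPM with PBS. In replicates 3 and 4 it was at 95.0 and 159 CPM with FGF2 and 329.9 and 160.3 CPM with PBS, apart by little. *Smad1*, 1 of the SMADs that carry the BMP signal, was at 50.3, 50.9, 52.5 and 43.6 CPM with PBS and at 14.4, 22.4, 58.0 and 31.3 CPM with FGF2. Thus 3 of 4 FGF2 cultures were below all PBS cultures and 1 was above them (log2 fold change -0.64 ± 0.43, SE). *Smad5* differed by 0.10 ± 0.20 and *Bmpr1a* and *Bmpr2* by -0.36 ± 0.35 and -0.29 ± 0.36 on the log2 scale (SE).

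FGF10 likewise gave no call: 0 of 10 genes and 0 (0%) of 13309 by edgeR, with 0 and 305 at an unadjusted p under 0.05, and 0 and 94 by DESeq2. CPM of 2 genes did not overlap between FGF10 and PBS, against 4.79% of all genes tested. *Id1* was higher in each FGF10 culture (26.8, 23.1 and 31.8 CPM) than in any PBS culture, with a log2 fold change of 1.35 ± 1.26 (SE). *Smad1* was lower in each FGF10 culture, at 35.3, 27.5 and 43.4 CPM, with a log2 fold change of -0.47 ± 0.36 (SE), although PBS replicate 4 exceeded the nearest FGF10 culture by little. *Id4* was at 577, 545 and 323 CPM with FGF10, inside the PBS range of 160.3–594 CPM. *Smad5* was lowest in this group, at 162, 146 and 209.7 CPM (log2 fold change -0.33 ± 0.23, SE).

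Between the FGF ligands, 0 of 10 genes and 0 (0%) of 13493 were called by edgeR in FGF2 against FGF10, with 0 and 324 at an unadjusted p under 0.05, and 0 and 80 by DESeq2. Only *Smad7*, the broader of the inhibitory SMADs, which also acts on TGF-β receptors, did not overlap, where 4.90% of all genes did not. It was at 3.53, 5.27, 0.0837 and 4.60 CPM with FGF2 and at 15.4, 11.9 and 18.6 CPM with FGF10, a log2 fold change of -2.18 ± 1.35 (SE, edgeR adjusted p = 1.00). The PBS cultures, at 0, 13.5, 12.8 and 0 CPM, spanned both. Of genes at 5–10 CPM elsewhere, 7.58–33.8% were at 0 in a given library, the range in which the mean of *Smad7* lies. Within replicates 3 and 4, *Id4* was lower with FGF2 (95.0 and 159 CPM) than in the 1 FGF10 library (323 CPM), a fit called by edgeR (log2 fold change -1.34, adjusted p = 0.0195) in which the lone FGF10 library was assumed to vary like the other libraries of those replicates. The comparisons with FGF2 and FGF10 share the same PBS libraries.

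**Figure D3:**
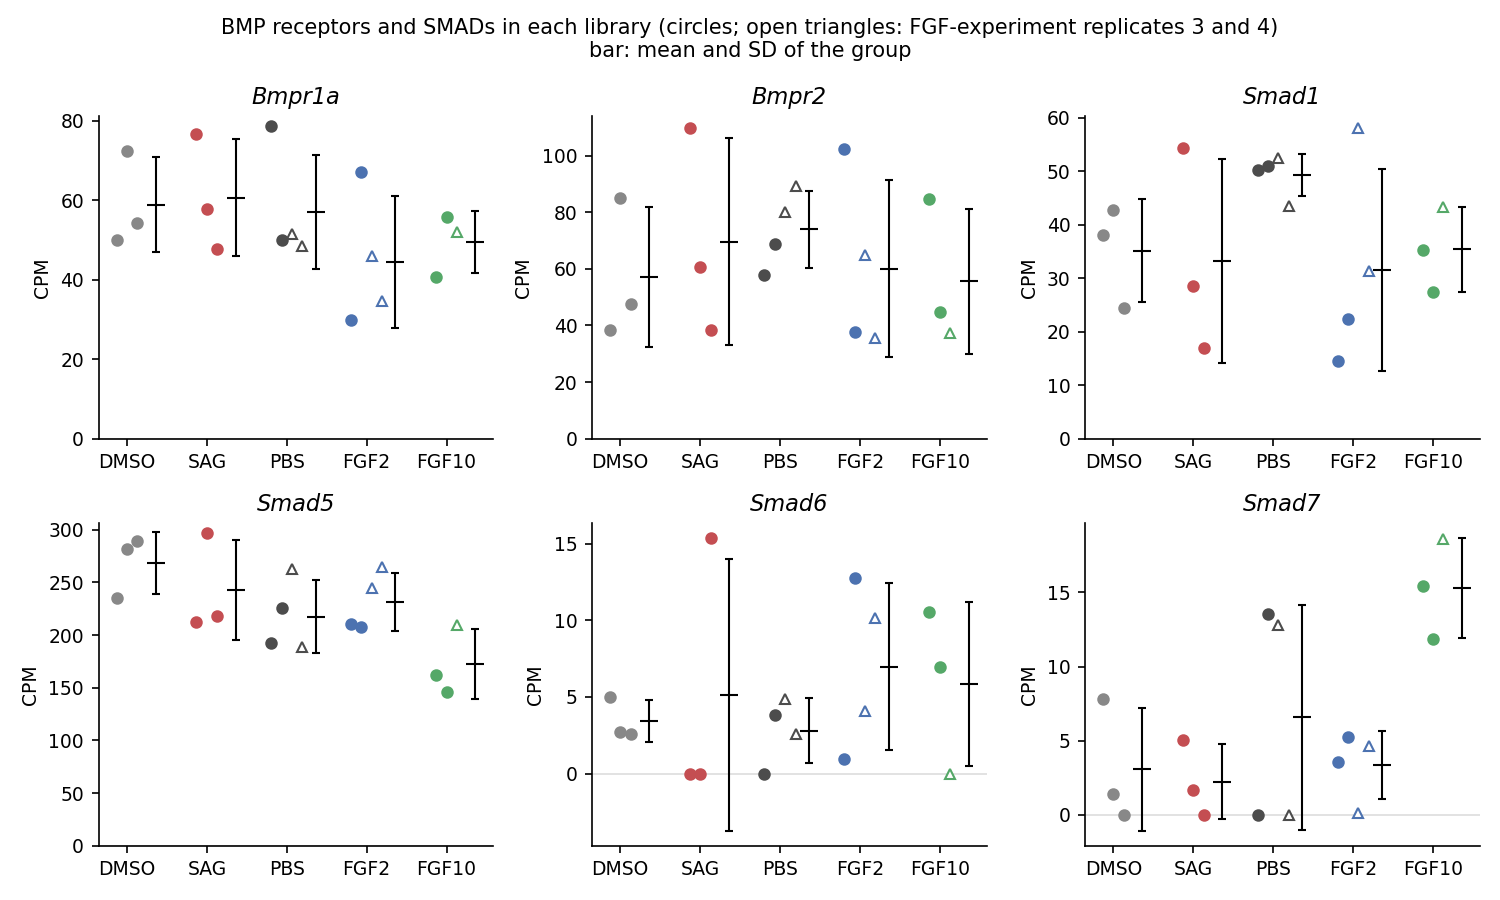
CPM of the BMP receptors and SMADs in each library, by group, with the group mean and SD; open triangles are replicates 3 and 4 of the FGF experiment, and SD bars may pass below 0. *Smad5* stays between 146 and 297 CPM in all 17 libraries, whereas *Smad7* is at 11.9–18.6 CPM with FGF10 and at most 5.27 CPM with FGF2.

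Between the control groups, *Id3* stood furthest from the rest of the set. It was at 24.2, 92.5 and 58.4 CPM with DMSO and at 111, 114, 207 and 289 CPM with PBS, so that every PBS culture exceeded every DMSO culture. The log2 fold change was 1.64 ± 0.44 (SE, edgeR adjusted p = 0.978) and ranked 32 of 13271 genes by p-value. It joins both PBS replicate sets, with an *Id3* mean of 113 CPM in replicates 1 and 2 and 248 CPM in replicates 3 and 4. By edgeR 0 of 10 genes and 0 (0%) of all were called, with 1 and 580 at an unadjusted p under 0.05, and by DESeq2 0 and 184. With no filter on low counts *Id3* was called by edgeR (adjusted p = 1.81e-04). *Smad1* was also higher in each PBS culture (log2 fold change 0.50 ± 0.38, SE), and 6.44% of all genes did not overlap between these groups. *Bmp4*, which encodes a BMP ligand, was at 0.716–17.8 CPM with DMSO and 24.4–47.6 CPM with PBS (log2 fold change 2.50 ± 0.99, SE, edgeR adjusted p = 1.00). Of the 4 BMP ligands tested, 2 were higher and 2 lower with PBS. *Id1* lay the other way from *Id3*, at 21.3–31.9 CPM with DMSO and 0–21.9 CPM with PBS. Summed cell cycle markers were at 215–342 CPM with DMSO and 221–1459 CPM with PBS, and their part in the *Id3* difference was not tested. Vehicle, days of culture and experiment changed together between PBS and DMSO and cannot be told apart.

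**Figure D4:**
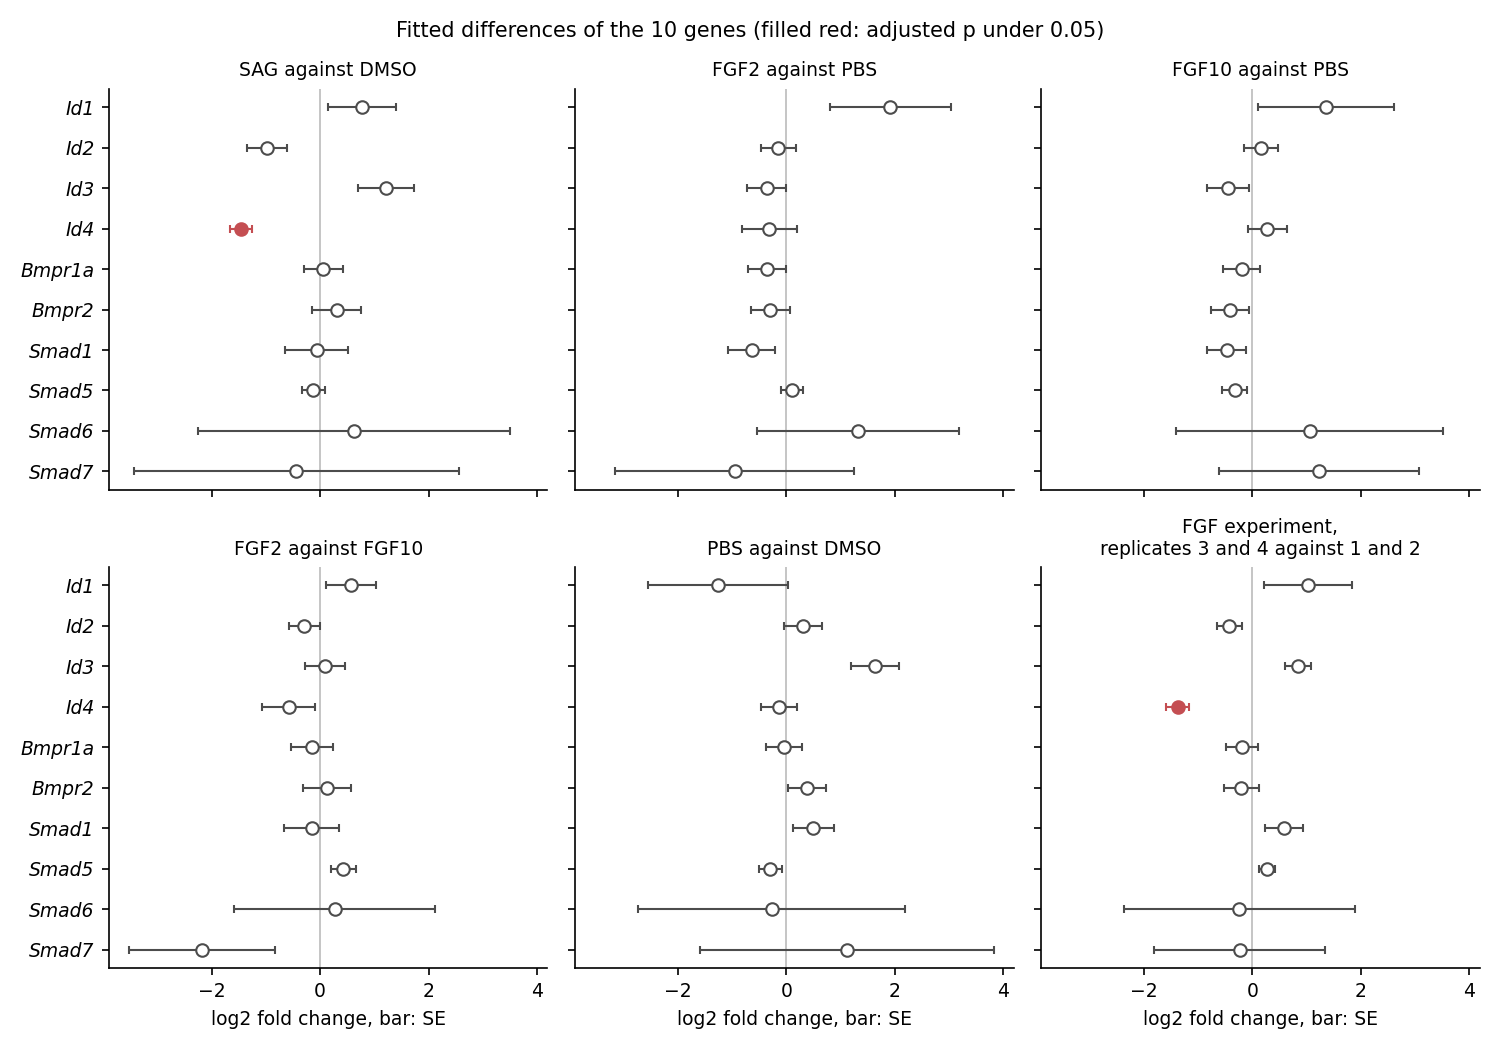
Log2 fold change with SE of each of the 10 genes in the 6 comparisons, from edgeR; filled red points have an adjusted p under 0.05. Only *Id4* is filled, at -1.46 for SAG against DMSO and -1.38 for replicates 3 and 4 against 1 and 2, and *Smad6* and *Smad7* have the widest bars.

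*Id4* also differed between the replicate sets of the FGF experiment, in all 3 groups. It was at 594 and 522 CPM in PBS, 543 and 486 CPM in FGF2 and 577 and 545 CPM in FGF10 replicates 1 and 2. Replicates 3 and 4 gave 329.9 and 160.3 CPM in PBS and 95.0 and 159 CPM in FGF2, and FGF10 replicate 3 gave 323 CPM. The sets did not overlap, at 545 ± 38.7 CPM (SD, n = 6) and 213 ± 107 CPM (SD, n = 5). With treatment as a covariate the log2 fold change was -1.38 ± 0.21 (SE, edgeR adjusted p = 5.97e-04, rank 107 of 12957 genes). It was called without each of the 11 libraries in turn and in the 5 other settings. In this fit 1 of the 10 genes was called, beside 4.38% of all genes tested, and 1 did not overlap, beside 5.40%.

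*Id3* values lay the opposite way in PBS and FGF2. It was at 111 and 114 CPM in PBS and 91.9 and 88.6 CPM in FGF2 replicates 1 and 2, and at 207 and 289 CPM and 194 and 187 CPM in replicates 3 and 4. FGF10 did not follow, with 191 and 80.0 CPM in replicates 1 and 2 and 125 CPM in replicate 3. Over all 3 groups the log2 fold change was 0.85 ± 0.24 (SE, edgeR adjusted p = 0.0531), just outside the threshold. With 1 library left out, the edgeR adjusted p ran from 0.00164 to 0.177 and passed in 2 of 11 cases, without FGF10 replicate 1 and without FGF10 replicate 3. *Id2* (-0.42 ± 0.22), *Id1* (1.03 ± 0.81), *Smad1* (0.58 ± 0.35) and *Smad5* (0.27 ± 0.14) had smaller or less certain log2 fold changes (SE), and those of *Bmpr1a* and *Bmpr2* were -0.19 and -0.20.

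Cell type and cell cycle transcripts differed between the replicate sets too. Summed cell cycle markers were at 221–445 CPM in replicates 1 and 2 and 1194–1836 CPM in replicates 3 and 4, with 6 of 10 genes called, all higher. Neuron markers summed to 142–222 and 30.8–58.3 CPM (2 of 8 tested called lower), ependymal markers to 350–553 and 82.8–223 CPM (2 of 8) and endothelial or mural markers to 158–356 and 41.0–99.1 CPM (2 of 3), the last with *Cldn5*, *Cdh5* and *Kcnj8* at 0 in both sets. Astrocyte markers summed to 4699–5610 and 3423–3967 CPM, with 4 of 10 called lower and 1 higher. Oligodendrocyte lineage markers summed to 744–909 and 315–755 CPM (1 of 9 called lower), and fibroblast or meningeal markers to 25.1–101 and 11.2–32.7 CPM (1 of 3). The gene called on the latter list was *Pdgfrb*, which is also 1 of the endothelial or mural genes called. The other 2 fibroblast or meningeal genes tested had higher fitted values in replicates 3 and 4. Microglia or macrophage markers summed to 0–1.29 and 0–4.35 CPM. Their part in the *Id4* and *Id3* results was not tested.

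Across all 17 libraries, the gene whose pattern was most like that of *Id4* among 9069 genes with a mean of at least 10 CPM was *Gfap*, the intermediate filament gene of astrocytes (Pearson r of log2(CPM + 1) = 0.96, and 0.95 after group means were removed). *Kcne1l* and *Dclk1* followed (r = 0.94 each). The most opposite were the ribosomal protein gene *Rpl36a* (r = -0.96), the oligodendrocyte lineage factor gene *Olig1* (r = -0.90) and the cyclin gene *Ccnd1* (r = -0.90), which were looked up after these values were seen. *Gfap* was at 139–198 CPM with DMSO and 25.1–60.1 CPM with SAG (log2 fold change -2.08 ± 0.35, SE, edgeR adjusted p = 0.0854). It fell from 311 ± 52.8 CPM (SD, n = 6) to 48.0 ± 30.5 CPM (SD, n = 5) between the replicate sets (log2 fold change -2.80 ± 0.36, SE, edgeR adjusted p = 8.07e-05). The libraries share group, replicate set and depth, so they are not independent points, and *Id4* values are spread unevenly, with the widest gap between 183 and 323 CPM.

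**Figure D5:**
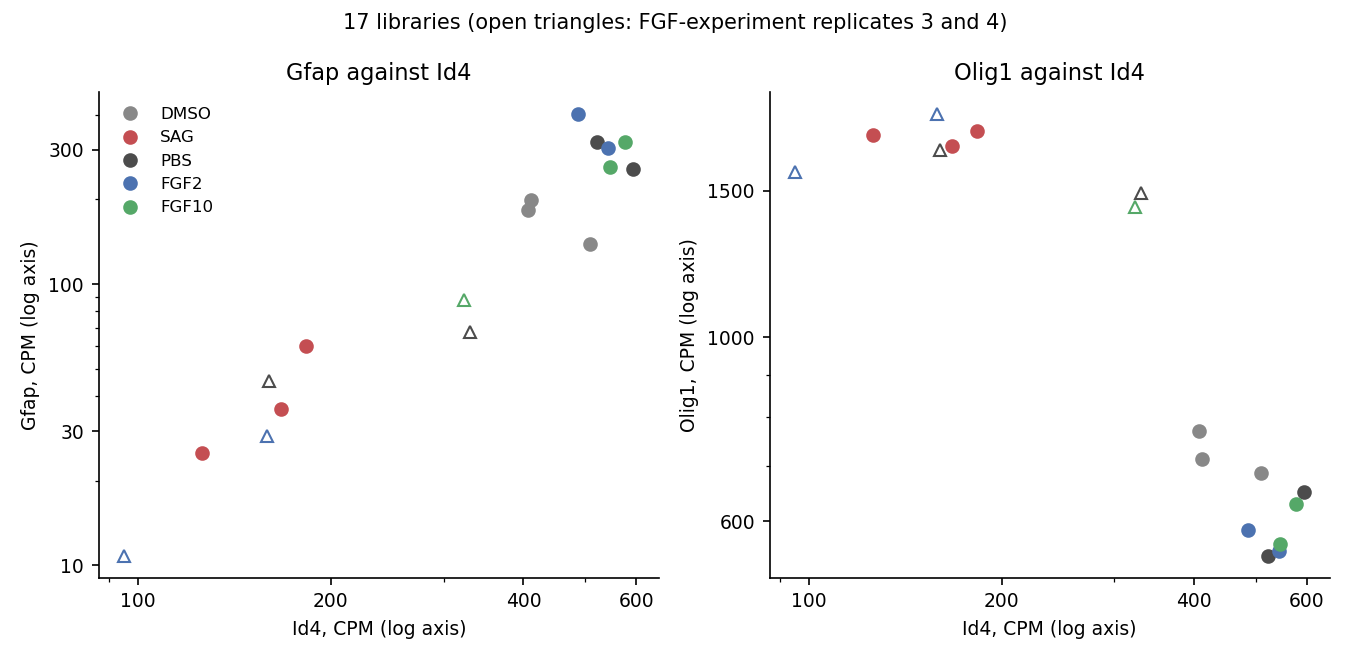
CPM of *Gfap* (left) and *Olig1* (right) against *Id4* in 17 libraries, log axes; colors are groups and open triangles are replicates 3 and 4 of the FGF experiment. SAG cultures and replicates 3 and 4 lie at lower *Id4* (95.0–329.9 CPM, against 407–594 CPM in the other libraries), lower *Gfap* (10.8–87.8 CPM) and higher *Olig1* (1434–1856 CPM).

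The other ID genes had weaker likenesses. *Pih1d1* and *Tsc22d3* were among the genes most like *Id1* (r = 0.85 each). *Id2* was most like *Zfp703*, the metallothionein gene *Mt2* and *Tsc22d1* (r = 0.87, 0.83 and 0.83). *Id3* was most like *Tpx2*, a gene of the mitotic spindle, and *Atp5j2* and *Pcca* (r = 0.79, 0.78 and 0.77). Among themselves, *Id2* and *Id4* had r = 0.68 and Spearman's rho = 0.64, and *Id3* and *Id4* had r = -0.47 and rho = -0.45 (n = 17, described without a test).

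Of 92 other genes of the pathway in 7 lists, 60 were tested in SAG against DMSO and 1 was called, *Olig1*. It rose from 686, 714 and 772 CPM to 1772, 1697 and 1749 CPM (log2 fold change 1.29 ± 0.14, SE, edgeR adjusted p = 0.00420). OLIG1 and OLIG2 are bHLH factors whose E protein partners ID proteins bind. *Olig2* was at 939–1437 CPM with DMSO and 1763–1910 CPM with SAG, also without overlap (log2 fold change 0.70 ± 0.17, SE, edgeR adjusted p = 0.369). The median log2 fold change of the 60 genes was -0.10, against -0.02 over all genes tested. Neither *Olig1* nor any other listed gene was called without DMSO replicate 1, SAG replicate 2 or SAG replicate 3. The 3 comparisons among the FGF experiment's groups gave 0 calls among 64 or 65 listed genes by edgeR and 0 by DESeq2, with 1 to 4 at an unadjusted p under 0.05. PBS against DMSO gave 0 of 63 by edgeR, with 5 at an unadjusted p under 0.05, and 1 by DESeq2.

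Between the replicate sets, 8 of 64 listed genes were called, 4 higher and 4 lower. All 4 that rose were on the list of bHLH partners and rivals of ID, of which 11 were tested with a median log2 fold change of 0.68 (-0.02 over all genes). *Olig1* rose from 588 ± 43.5 to 1608 ± 167 CPM, *Olig2* from 882 ± 99.4 to 1813 ± 272 CPM, and *Hes5*, a Notch effector, from 247 ± 38.1 to 523 ± 143 CPM (SD, n = 6 and 5). Lower in replicates 3 and 4 were *Gfap*, *Sox9*, which specifies glia, *Nbl1*, a secreted BMP antagonist, and *Nedd4l*, a ubiquitin ligase that acts on SMADs. Their log2 fold changes were -2.80, -0.68, -1.05 and -1.01, with edgeR adjusted p-values of 8.07e-05, 3.23e-04, 0.0133 and 0.0220. *Olig1* and *Id4* thus changed in opposite directions both with SAG and between the replicate sets. Their opposite pattern over all 17 libraries rests on the same values, so neither observation is separate support for the other.

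The cultures expressed few BMP ligand genes. Of 13 listed ligands, 6 had no count in any library and 4 were tested, led by *Bmp4* (22.4 CPM over 17 libraries), *Bmp6* (11.8 CPM) and *Bmp7* (9.80 CPM). That order held for the mean of all libraries and not in each group: with DMSO, *Bmp6* (17.8 CPM) and *Bmp7* (14.4 CPM) were above *Bmp4* (6.63 CPM), and with SAG *Bmp4* was at 4.05 CPM, below both. *Bmp6* was at 16.2, 16.8 and 20.3 CPM with DMSO and at 0.0861, 4.56 and 11.8 CPM with SAG, without overlap (log2 fold change -1.66 ± 1.55, SE, edgeR adjusted p = 1.00). The repulsive guidance molecule gene *Rgma*, at 368 CPM, and its receptor gene *Neo1*, at 231 CPM, were far higher than these ligands. *Rgmb* (12.1 CPM) and *Eng* (0.447 CPM), on the same list of receptors and co-receptors, were not. *Bmpr1b*, the other classical type I receptor, was at 26.2 CPM. The most abundant antagonist genes were *Nbl1* (134 CPM), *Fstl1* (80.0 CPM) and *Twsg1* (36.0 CPM). Among other SMADs and their regulators, *Ski*, *Zeb2* and *Stub1* led at 131, 112 and 92.1 CPM.

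Other listed BMP targets were led by *Sox9* (1202 CPM), *Hes1* (304 CPM) and *Gfap* (162 CPM). The bHLH list was led by *Olig2* at 1372 CPM, *Olig1* at 1115 CPM and the E protein gene *Tcf4* at 1084 CPM, each above *Id4*. *Tcf4* stayed within 860 to 1397 CPM in all 17 libraries and was called in no comparison. On the TGF-β and activin branch, which signals through other SMADs, *Ltbp3*, *Tgfb2* and *Acvr1b* led at 55.5, 55.2 and 41.2 CPM. *Tgfb2* had a log2 fold change of -1.34 ± 0.38 between the replicate sets (SE, edgeR adjusted p = 0.0510), and no gene of this list was called in any comparison.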

How the data were processed

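RNA-seq libraries of 17 immunopanned astrocyte cultures from 5 groups were analyzed. The authors sequenced QuantSeq 3′ libraries after removal of BC1 transcripts, aligned the reads and deposited whole-number read counts per gene without normalization. The submitters' processing notes name STAR, DESeq2 and GRCm38, and the annotation, strand setting, trimming and use of molecular identifiers are not given in the sources used here, so PCR copies may have been counted as separate reads. Columns named Shh were taken as SAG, and 0 sample columns went unused. Of 56805 rows, 114 spike-in rows (at most 86 counts per library) were left out, and 34085 of 56691 gene rows had no count.

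Each comparison was fitted on its own libraries with edgeR 4.0.16 in R 4.3.3 (limma 3.58.1): filterByExpr (minimum count 10, total 15), TMM, quasi-likelihood test, Benjamini–Hochberg adjustment over all genes tested, call at an adjusted p under 0.05. The SE given with an edgeR log2 fold change is its absolute value divided by the square root of the quasi-likelihood F statistic. CPM were scaled over all 17 libraries, and likeness used log2(CPM + 1) of genes with a mean of at least 10 CPM. Alternatives were DESeq2 1.42.0, its size factors, other filters, 1 fit of all libraries, a replicate block, the replicate sets alone or as a term, and leaving out each library. The scripts were tested on simulated data. Counts of replicate pairs differed beyond sampling noise in all 21 pairs (chi-square per degree of freedom 152 to 532). Genes, lists and tests were chosen with earlier results of these data known. The text names all 10 genes, from each pathway list the called genes and the 3 with the highest mean CPM, for each ID gene the 3 genes with the highest r, and *Ptch1* and *Gli1* as the treatment check; marker lists are given by counts and sums. Some genes that this rule names are not reported here.

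Deviations from group means of samples with the same replicate number correlated at -0.00937 to 0.0108 for SAG and DMSO, 0.141 to 0.183 for FGF2 and PBS, 0.110 to 0.219 for FGF2 and FGF10, 0.0815 to 0.194 for FGF10 and PBS and -0.0125 to 0.0104 for PBS and DMSO. Every same-number pair passed 0.1 for FGF2 with PBS and with FGF10, but samples of another number correlated as highly (up to 0.194 and 0.218), within the same replicate set. These values show the replicate sets and not a pairing of single cultures, and no source says what the numbers share.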

Additional observations from a re-analysis of the deposited data

Results flagged for a closer look

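*Bmpr1a*, the type I BMP receptor gene, was at 78.5 CPM in PBS replicate 1 and at 48.4, 49.9 and 51.5 CPM in the other PBS libraries. The gap of this library to the nearest exceeded Dixon's 95% critical value for 4 samples. Among 20 sets of 1 gene in 1 group of 4 that were examined, chance alone would place about 1 in 20 past that limit.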

How the results depend on the processing

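*Id4* kept its direction under every alternative run in SAG against DMSO and between the replicate sets, and no value that changed sign was a called one. Counts of calls depended on the tool and filter. The replicate block (paired fit) gave 2 listed pathway genes called with SAG in place of 1 and changed no other call among the 10 genes and the lists. Under it *Smad6* was at -7.81 with SAG, *Smad7* at 3.07 (FGF2 against PBS), *Id2* at -0.0395 (FGF10 against PBS), *Id3* at -0.080 (FGF2 against FGF10), and *Id4* and *Bmpr1a* at 0.097 and 0.021 (PBS against DMSO), all log2 fold changes of the opposite sign. Alternatives for the pathway lists were chosen after seeing the data.

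All genes called with SAG numbered 76 with no filter, 42 when genes needed a mean of 10 counts, 4 in 1 fit of 17 libraries, 394 by DESeq2 and 4 at an adjusted p under 0.01 with a log2 change over 1. Of the 10 genes 0 were called in the fit of 17 and 0 at that threshold. Pathway genes called numbered 3, 2, 0 and 6 with no filter, the mean filter, the fit of 17 and DESeq2. DESeq2 called 104 genes for FGF2 and 94 for FGF10, each against PBS, 80 between these ligands and 184 for PBS against DMSO. FGF2 against FGF10 gave 2 with no filter. PBS against DMSO gave 36 with no filter (1 of the 10, *Id3*), 4 with the mean filter and 1 in the fit of 17, and 1 pathway gene by DESeq2. Between the replicate sets, no filter, the mean filter and DESeq2 each called 2 of the 10 genes, *Id4* and *Id3*. All genes called there numbered 856 with the mean filter, 3190 by DESeq2 and 175 at the stricter threshold. Pathway genes numbered 17 by DESeq2 and 4 at that threshold.

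In replicates 1 and 2 alone, 4, 5 and 4 of the 10 genes did not overlap (FGF2 and FGF10 against PBS, and the ligands against each other), and in replicates 3 and 4 alone 5, 8 and 8, groups of 1 or 2 libraries. The share over all genes was not counted in these subsets, so these numbers are no result about the 10 genes. Replicates 3 and 4 gave 14 calls over all genes for FGF10 against PBS and 47 for FGF2 against FGF10, where 1 of the 10 (*Id4*) and 1 pathway gene were called. Signs turned in replicates 1 and 2 for *Bmpr2* (0.15, FGF2 against PBS), *Id2* (-0.31), *Id3* (0.27) and *Bmpr2* (0.029) in FGF10 against PBS, and *Id2* (0.046), *Id3* (-0.58), *Bmpr1a* (0.012) and *Smad6* (-0.35) in FGF2 against FGF10. They turned in replicates 3 and 4 for *Id2* (0.045, FGF2 against PBS), *Bmpr1a* (0.050) and *Smad6* (-10.17) in FGF10 against PBS and *Smad1* (0.049, FGF2 against FGF10). With the set as a term, *Id3* was at -0.20 in FGF2 against FGF10.

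Leaving out 1 library at a time, calls with SAG ran from 1 to 7 over all genes, 0 to 0 of the 10 and 0 to 2 of the pathway genes, and between the sets from 1 to 2 of the 10. Genes of the 10 without overlap ran from 2 to 4 (SAG), 0 to 1 (FGF2 against PBS), 2 to 4 (FGF10 against PBS), 1 to 3 (FGF2 against FGF10), 2 to 4 (PBS against DMSO) and 1 to 2 (sets). For these runs too, the share over all genes was not counted. Log2 fold changes that crossed 0 with SAG ran from -0.14 to 0.24 for *Bmpr1a*, -0.18 to 0.71 for *Bmpr2*, -0.60 to 0.25 for *Smad1*, -10.32 to 1.22 for *Smad6* and -1.81 to 1.71 for *Smad7*. *Id2* ran from -0.35 to 0.035 in FGF2 against PBS and from -0.065 to 0.31 in FGF10 against PBS, where *Id4* ran from -0.0014 to 0.51. In FGF2 against FGF10, *Id3* ran from -0.16 to 0.46, *Bmpr1a* from -0.42 to 0.0022, *Bmpr2* from -0.26 to 0.56, *Smad1* from -0.63 to 0.085 and *Smad6* from -0.32 to 1.01. In PBS against DMSO, *Id4* ran from -0.38 to 0.13, *Bmpr1a* from -0.22 to 0.14 and *Smad6* from -0.67 to 0.15. Between the sets, *Bmpr1a* ran from -0.32 to 0.0015, *Bmpr2* from -0.36 to 0.11, *Smad6* from -0.89 to 0.58 and *Smad7* from -1.16 to 0.58. The cause of these changes was not tested. *Smad6* and *Smad7* ran from 0 to 482 and 714 counts among the libraries, and the standard errors of their log2 fold changes from 1.35 to 3.00.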
